A study of Mus musculus with 2 samples.

Results

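Keratins and genes of the epithelial and mesenchymal states were followed in MC38 tumor cells, fibroblast-like cells and the other cells of mouse tumors with and without the STING agonist MSA-2. The genes were chosen by symbol: Krt7, Krt8, Krt18, Krt19, Krt14, Epcam, Cdh1, Cdh2, Vim and Zeb1. These are 10 of the 32285 features of the files, and each symbol belonged to 1 feature.

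MC38 is a mouse colon carcinoma line, and the tumors grew under the skin of C57BL/6 mice. The control library carries the label Untreated, although its tumors received a vehicle of saline with 10% DMSO, and the other library came from tumors injected with MSA-2. Each group had 3 injections into the tumor at 3-day intervals, with collection on the day after the last one, and each library pooled the tumors of 3 mice. Single cells were captured in droplets and the 3′ ends of their transcripts were counted with unique molecular identifiers (UMIs). With 1 library per group, the spread between tumors is unknown, no test between groups was possible, and a group cannot be told apart from its library.

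Keratins are the intermediate filament proteins of epithelia and assemble as pairs of a type I chain (Krt14, Krt18, Krt19) with a type II chain (Krt7, Krt8); Krt8 with Krt18 is the pair of simple epithelia such as the colon, and Krt14 belongs to the basal layer of stratified epithelia such as skin. Epcam and Cdh1, which encodes E-cadherin, are adhesion proteins of epithelial cells. In the epithelial-mesenchymal transition cells lose these genes and gain Cdh2, which encodes N-cadherin, and Vim, the intermediate filament of mesenchymal cells, while the repressor Zeb1 silences epithelial genes through E-box sequences.

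The untreated file held 14386 barcodes with 198135335 UMIs and a median of 8372 UMIs per barcode. The MSA-2 file held 14617 barcodes with 204387165 UMIs and a median of 8661. After barcodes with under 500 genes or over 20% mitochondrial UMIs were removed, 14039 untreated and 13963 MSA-2 barcodes remained. Calls of doublets took out a further 705 (5.02%) and 617 (4.42%), which left 13334 and 13346 cells. The libraries shared 53 barcode sequences, 39 of them among kept cells of both and 4 among tumor cells of both. Without every tumor cell whose barcode sequence was also a kept cell of the other library, 4712 untreated and 2760 MSA-2 tumor cells remained. The largest shift of a member's log2 ratio between groups was then 0.0242, for Cdh1.

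Tumor cells were taken by the rule of at least 8000 UMIs, a summed share of Ptprc, Tyrobp, Fcer1g and Cd3e under 0.03% of UMIs, and a summed share of Col1a2 and Dcn under 0.1%. This gave 4728 untreated cells (35.5% of kept cells) with a median of 23792 UMIs and 2772 MSA-2 cells (20.8%) with a median of 24139.5. Fibroblast-like cells had Col1a2 at 0.3% of UMIs or more, and there were 185 untreated cells with a median of 11940 UMIs and 489 MSA-2 cells with a median of 13690. The other classes were set by summed shares of marker genes in cells with at least 1000 UMIs: endothelial-like and pericyte-like cells at 0.2% or more, T/NK-like cells at 0.2% or more, neutrophil-like cells at 2% or more, and phagocyte-like cells (macrophages, monocytes and dendritic cells) with Tyrobp plus Fcer1g at 0.1% or more. The tumor rule came first, so the other classes hold only cells that failed it. Among tumor cells, 26 untreated and 38 MSA-2 cells also passed the endothelial, pericyte, T and NK or neutrophil limit. Of the remaining kept cells, 2046 untreated (15.3%) and 2154 MSA-2 (16.1%) were placed in no class. Cells that met the limits of several classes were left out in this way, as were cells that met none. Levels are given as UMIs of a gene per 1000000 UMIs of all cells of a class (CPM), with exact 95% intervals (Poisson for a level, Clopper-Pearson for a share, conditional binomial for a ratio). Ratios between groups divide the MSA-2 level by the untreated one. All of these intervals cover counting error only.

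The limit on Dcn set aside many deep cells with few immune UMIs and little Col1a2. Cells that passed the depth and immune limits with Col1a2 under 0.05% of UMIs numbered 5610 untreated and 6160 MSA-2, and only 5 and 114 cells lay between 0.05% and 0.3%. Among cells that passed the other limits, 308 untreated and 637 MSA-2 cells had Col1a2 plus Dcn at 0.08% to 0.12%, near the limit. Depth of 7000 to 9000 UMIs was found in 224 and 160 cells, and an immune share of 0.025% to 0.035% in 244 and 56.

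The cells with Dcn above the limit and Col1a2 below 0.05% are called Dcn-high here. They numbered 882 in the untreated library, with a median of 17361 UMIs, and 3389 in the MSA-2 library, with a median of 20396. Their Col1a2 level was 17.4 CPM untreated and 41.1 CPM with MSA-2, beside 18.7 and 42.2 CPM in tumor cells and 12032 and 7111 CPM in fibroblast-like cells. Their Dcn level was 2404 and 2500 CPM, against 171 and 343 CPM in tumor cells. The class limits use both genes, so the gap in Dcn and the gap in Col1a2 to fibroblast-like cells were fixed by them. With MSA-2 the cells set aside in this way (3389) outnumbered the tumor cells of the rule (2772), so results are given for tumor cells, for Dcn-high cells and for both together.

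The labels were checked against marker genes. The study's labels for epithelial cells, Gng11, Anxa1 and Ccn1, stood at 1251, 973 and 590 CPM in untreated tumor cells and at 993, 910 and 286 CPM in MSA-2 tumor cells. In fibroblast-like cells they stood at 311, 673 and 824 CPM untreated and at 463, 655 and 335 CPM with MSA-2. Gng11 and Anxa1 were higher in tumor cells than in fibroblast-like cells in both libraries, and Ccn1 was lower in both. The usual epithelial markers Epcam, Krt8, Krt18 and Krt19 were each under 1 CPM in the tumor cells of both libraries, so these cells are named by the rule and not by an epithelial state.

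The list of 6 fibroblast markers holds Col1a2 and Dcn, which the rule used, so the order of the classes in its sums is partly set by the rule. It summed to 1257 CPM untreated and 857 CPM with MSA-2 in tumor cells, of which Col3a1 made up 986 and 424 CPM. In Dcn-high cells it summed to 5633 and 3668 CPM, of which Dcn was 2404 and 2500 CPM and Col3a1, not used by the rule, 2985 and 1036 CPM, and in fibroblast-like cells to 35814 and 23142 CPM. Gng11, a marker of the tumor cells, was at 1251 and 993 CPM in tumor cells and at 1694 and 3087 CPM in Dcn-high cells. The 5 neutrophil markers summed in tumor cells to 3.47 CPM untreated and 379.9 CPM with MSA-2, so the barcodes of MSA-2 tumor cells held RNA of neutrophil genes. What part this had in the members' values was not tested.

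**Figure D1:**
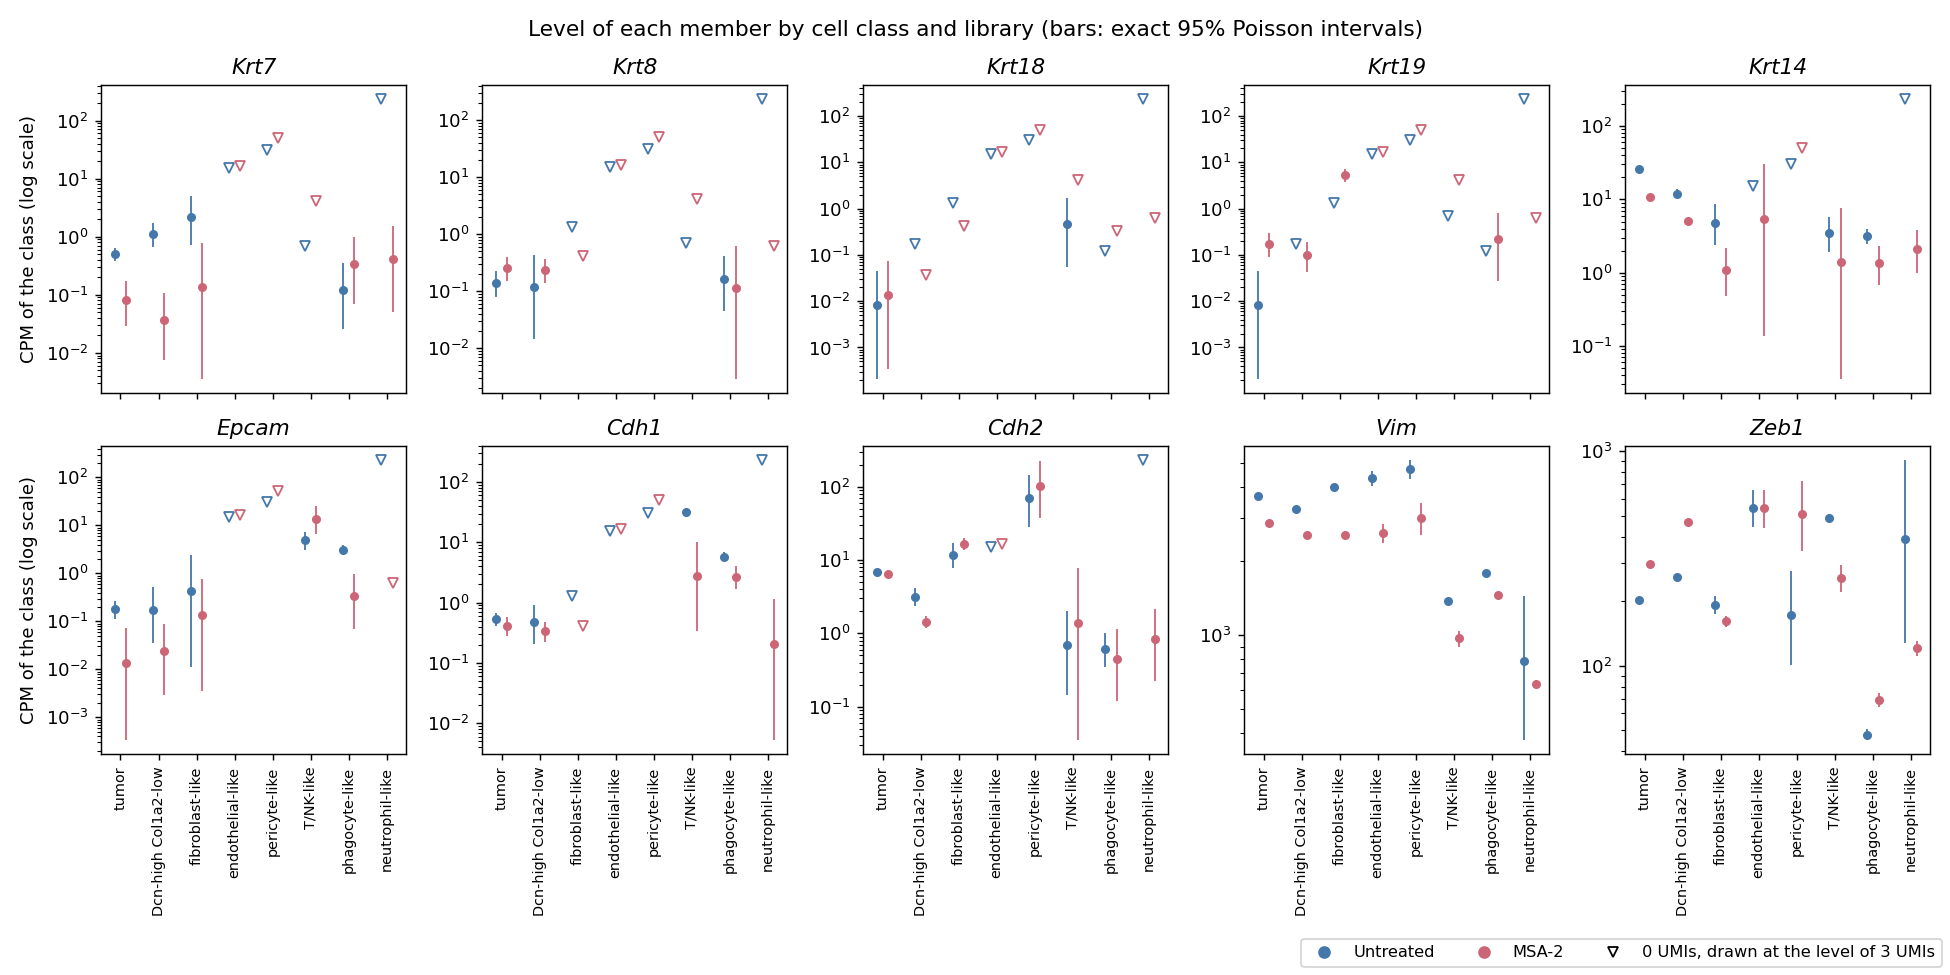
Level of each member in 8 cell classes and both libraries, in CPM on a log scale, with exact 95% Poisson intervals as bars and open triangles at the level of 3 UMIs where none was found. Vim and Zeb1 stand above 100 CPM in tumor cells, Krt14 and Cdh2 between 1 and 100 CPM, and the other 6 members under 1 CPM.

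By GENCODE M21 on GRCm38, the type II keratin genes Krt7 (ENSMUSG00000023039, chr15:101411043-101430313, plus strand) and Krt8 (ENSMUSG00000049382, chr15:101996698-102004482, minus strand) lie on chromosome 15, and so does the type I gene Krt18 (ENSMUSG00000023043, chr15:102028180-102032027, plus strand). The type I genes Krt19 (ENSMUSG00000020911, chr11:100140810-100148665) and Krt14 (ENSMUSG00000045545, chr11:100203162-100207548) lie on the minus strand of chromosome 11. Vim (ENSMUSG00000026728, chr2:13573927-13582826), Epcam (ENSMUSG00000045394, chr17:87635979-87651129) and Cdh1 (ENSMUSG00000000303, chr8:106603351-106670246) lie on plus strands. Cdh2 (ENSMUSG00000024304) and Zeb1 (ENSMUSG00000024238) lie on chromosome 18.

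In tumor cells the members fell into 3 tiers. Vim had 3682 CPM untreated and 2860 CPM with MSA-2, which ranked it 33rd and 56th among all features by UMIs. Zeb1 ranked 741st and 459th, Krt14 5100th and 7739th, and Cdh2 8934th and 9054th. The other 6 members had at most 66 UMIs among 123495208 in untreated tumor cells and at most 31 among 74990673 in MSA-2 tumor cells.

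Between groups, 6 of the 10 members had at least 50 UMIs in tumor cells of both libraries together and were counted. None was at least 1.5-fold higher with MSA-2, beside 14.3% of all 15064 genes counted. Krt7 and Krt14 were at least 1.5-fold lower, beside 11.1% of all genes. The median log2 ratio between groups was -0.37 over the 6 members and 0.00 over all genes.

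The simple-epithelial keratins Krt8 and Krt18 were close to absent. Krt8 had 17 UMIs (0.138 CPM) in untreated and 19 UMIs (0.253 CPM) in MSA-2 tumor cells, each UMI in a cell of its own. The log2 ratio was 0.88 (-0.14 to 1.91), so a difference was not detectable at this depth. Krt18 had 1 UMI in each library, too few for a difference to be detectable. With Dcn-high cells added, Krt8 had 19 and 38 UMIs and a log2 ratio of 0.85 (0.02 to 1.73).

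Krt7, a type II keratin of ductal epithelia, had 61 UMIs (0.494 CPM) in 52 untreated tumor cells and 6 UMIs (0.08 CPM) in 6 MSA-2 tumor cells. The log2 ratio was -2.63 (-4.13 to -1.42). It was lower with MSA-2 in Dcn-high cells too, with 19 UMIs against 3 and a log2 ratio of -4.91 (-7.31 to -3.15). In the untreated library Krt7 was higher in Dcn-high than in tumor cells, by 1.18 on the log2 scale (0.35 to 1.94). Cells with a Krt7 UMI made up 1.10% of untreated and 0.216% of MSA-2 tumor cells.

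Krt19, a type I keratin of simple epithelia, had 1 UMI in untreated and 13 UMIs (0.173 CPM) in 9 MSA-2 tumor cells, with a log2 ratio of 4.42 (1.69 to 9.83). One MSA-2 cell held 5 of the 13 UMIs, and without it the log2 ratio was 3.72 (0.82 to 9.19). The gene was far more frequent in MSA-2 fibroblast-like cells, where 22 of 489 cells (4.50%, 2.84% to 6.73%) held 38 UMIs (5.25 CPM). No UMI was found in the 185 untreated fibroblast-like cells. By the rule of 3 counts for a count of 0, which is not the exact interval, this allows a share of up to 1.62% of cells with a UMI. The same rule makes the MSA-2 level at least 4.01-fold higher than 3 UMIs over the class. Over all kept cells Krt19 went from 1 UMI to 72, and fibroblast-like cells held 52.8% of the latter.

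Epcam and Cdh1 were likewise rare in tumor cells. Epcam had 22 UMIs (0.178 CPM) untreated and 1 UMI (0.0133 CPM) with MSA-2, and its log2 ratio was -3.74 (-9.11 to -1.11). Immune markers in the barcodes of tumor cells were lower as well. The phagocyte list went from 409.9 to 159.3 CPM and the T and NK list from 18.2 to 4.15 CPM. These lists hold Tyrobp, Fcer1g and Cd3e, which the tumor rule limits, so the sums are partly set by the rule. Among their other genes, C1qa went from 122.7 to 36.6 CPM and Nkg7 from 5.63 to 1.65 CPM. Of these other genes, Klrb1c alone was higher with MSA-2. What part RNA of immune cells had in the Epcam and Cdh1 values was not tested. Cdh1 had 66 UMIs (0.534 CPM) untreated and 31 UMIs (0.413 CPM) with MSA-2, and its log2 ratio of -0.37 (-1.04 to 0.27) was within counting error. For Cdh1 a single cell in each library carried weight: without 1 untreated cell with 12 UMIs the log2 ratio was -0.08 (-0.77 to 0.58), and without 1 MSA-2 cell with 8 UMIs it was -0.80 (-1.55 to -0.10).

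In the untreated library most of the Epcam and Cdh1 UMIs lay outside tumor cells. Of 153 Epcam UMIs in untreated kept cells, 49.7% lay in phagocyte-like cells and 14.4% in tumor cells. Of 434 untreated Cdh1 UMIs, 32.5% lay in phagocyte-like cells, 31.1% in T/NK-like cells and 15.2% in tumor cells. With MSA-2, tumor cells held 30.4% and Dcn-high cells 26.5% of 102 Cdh1 UMIs, and 3.45% and 6.9% of 29 Epcam UMIs. Both immune classes of the untreated library held more of these epithelial adhesion genes than the carcinoma cells did per UMI sequenced. Tumor cells were below phagocyte-like cells by a log2 ratio of -4.12 (-4.88 to -3.42) for Epcam and -3.43 (-3.87 to -3.00) for Cdh1 in the untreated library.

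The untreated phagocyte-like cells with Epcam were marked by genes of dendritic cells. Of 40 untreated phagocyte-like cells with an Epcam UMI, 57.5% held a UMI of the dendritic list (Flt3, Xcr1, Clec9a, Cd209a, Ccr7, Cd207), against 7.90% of the 4255 without. Their median depths were 6760 and 5377 UMIs. The macrophage and monocyte list had a median of 2989 CPM per cell in those with Epcam and 20151 CPM in those without. For Cdh1, 30.5% of 105 cells with a UMI and 7.80% of 4190 cells without held a UMI of the dendritic list, at median depths of 6421 and 5367.5 UMIs. With MSA-2, 0 of 2 phagocyte-like cells with Epcam held a UMI of the list. For Cdh1 it was 1 of 15 such cells (6.67%), against 2.55% of the 1962 without.

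Over all kept cells both genes were lower with MSA-2. Epcam had 153 UMIs untreated and 29 with MSA-2, a log2 ratio of -2.45 (-3.08 to -1.87). Cdh1 had 434 and 102, a log2 ratio of -2.14 (-2.47 to -1.83). The classes that held most of these UMIs were also a smaller part of the kept cells with MSA-2, phagocyte-like cells at 14.8% after 32.2% and T/NK-like cells at 1.10% after 8.53%, so these sums mix the make-up of the library with levels within classes. In T/NK-like cells Cdh1 went from 31.2 CPM, with a UMI in 9.14% of 1138 cells, to 2.78 CPM from 2 UMIs in 147 cells, a log2 ratio of -3.49 (-6.55 to -1.61). Epcam moved the other way there, from 4.86 to 13.9 CPM on 21 and 10 UMIs, a log2 ratio of 1.52 (0.27 to 2.66). The 9 MSA-2 T/NK-like cells with Epcam had a median of 2711 CPM for the phagocyte markers, against 283 CPM in those without it, while untreated the medians were 562 and 592 CPM. The part of phagocyte RNA in the MSA-2 value was not tested.

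Phagocyte-like cells held less of both genes with MSA-2. Epcam went from 76 UMIs to 3, a log2 ratio of -3.22 (-5.52 to -1.61), and Cdh1 from 141 UMIs to 24, a log2 ratio of -1.11 (-1.80 to -0.48). The share of phagocyte-like cells without Epcam that held a dendritic-list UMI was 7.90% untreated and 2.58% with MSA-2. Fewer cells of a kind and less RNA per cell cannot be told apart from these sums.

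The 6 low epithelial members seldom met in 1 cell. After each tumor cell was thinned at random to 8000 UMIs, 55 of 4728 cells untreated (1.16%, interval 0.878% to 1.51%) and 21 of 2772 with MSA-2 (0.758%, interval 0.47% to 1.16%) held a UMI of Krt7, Krt8, Krt18, Krt19, Epcam or Cdh1. Cells with 2 or more of these 6 genes numbered 0 untreated and 1 with MSA-2. Of the 55 and 21 cells, 78.2% and 85.7% held Zeb1, against 70.7% and 81.2% of all tumor cells. At these shares few such cells could be found, so whether the 6 genes occur together in tumor cells was not tested. Before thinning, 1 untreated barcode, described below as Krt5-positive, held 12 UMIs of Cdh1 and 2 of Epcam.

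Zeb1 binds E-boxes, and the sequence CACCTG is the form it is best known for. Promoters of 300 bases, from 250 before to 50 after the start site, were taken from RefSeq on GRCm38.p6, where 6 of the 10 members matched. Krt19, Cdh1, Cdh2 and Zeb1 had no entry. The starts for Krt7 and Krt14 lay 1360 and 1518 bases inside the genes as GENCODE places them, and those for Vim, Krt8 and Krt18 lay 384, 140 and 36 bases inside. The Krt7 and Krt8 matches therefore lie within the GENCODE genes. Both strands were searched for CACCTG, whose reverse complement is CAGGTG, and 20.2% of 32851 promoters held it. Of the 6 promoters, those of Krt7, Krt8, Krt18 and Epcam held it and those of Krt14 and Vim did not. The matches are shown with 30 bases on each side, on the strand of the gene and 5′ to 3′, with the match in capitals. A relation of these genes to Zeb1 was not tested, and untreated T/NK-like cells had 486 CPM of Zeb1 beside 4.86 CPM of Epcam and 31.2 CPM of Cdh1. The Krt7 window is chr15:101412329-101412394 on the plus strand, 44 bases before the start site. The Krt8 window is chr15:102004418-102004483 on the minus strand, 111 bases before the start. The Krt18 window is chr15:102027972-102028037 on the plus strand, 214 bases before. The Epcam windows are chr17:87635762-87635827 and chr17:87635930-87635995 on the plus strand, 187 and 19 bases before. A match describes the letters and shows no binding.
Krt7: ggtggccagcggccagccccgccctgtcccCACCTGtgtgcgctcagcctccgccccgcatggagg
Krt8: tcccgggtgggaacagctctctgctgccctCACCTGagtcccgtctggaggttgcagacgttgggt
Krt18: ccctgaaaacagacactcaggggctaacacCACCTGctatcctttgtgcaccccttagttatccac
Epcam, farther match: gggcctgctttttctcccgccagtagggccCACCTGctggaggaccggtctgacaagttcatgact
Epcam, nearer match: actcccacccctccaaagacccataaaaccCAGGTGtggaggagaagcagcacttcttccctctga

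Krt14 was the highest of the 5 keratin members. It had 3254 UMIs (26.3 CPM) in 20.7% of untreated tumor cells and 816 UMIs (10.9 CPM) in 13% of MSA-2 tumor cells. The log2 ratio between groups was -1.28 (-1.39 to -1.16). Its type II partner in basal epithelia, Krt5, had 31 UMIs in untreated tumor cells, 22 of them in 1 barcode.

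That barcode stood apart from the other tumor cells. It had 9830 UMIs, 2952 genes and 2.35% mitochondrial UMIs, and held 241 UMIs of Krt14, 341 of Krt16, 125 of Krt17, 51 of Krt6a, 36 of Krt6b and 49 of Sfn. It had 5 UMIs of Vim, 0 of Zeb1, 12 of Cdh1 and 2 of Epcam. Its Krt14 UMIs were 7.41% of those in untreated tumor cells, and the next cell held 40. Without it Krt14 was at 24.4 CPM untreated and its log2 ratio was -1.17 (-1.28 to -1.05), and Epcam's was -3.60 (-8.98 to -0.96). The other untreated tumor cells together held 9 UMIs of Krt5 beside 3013 of Krt14.

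**Figure D2:**
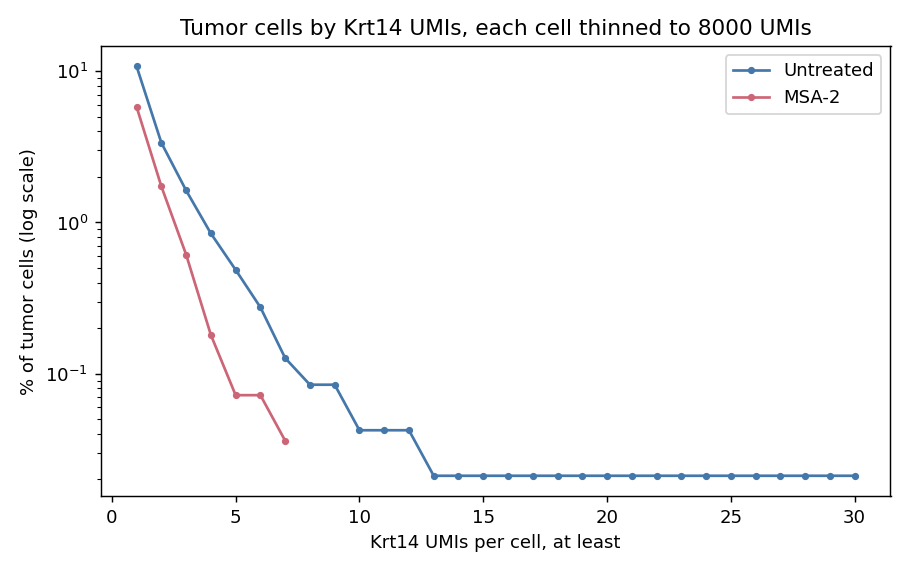
Share of tumor cells (log scale) with at least a given number of Krt14 UMIs in each library, after every cell was thinned to 8000 UMIs. The untreated line starts at 10.8% and the MSA-2 line at 5.81% for at least 1 UMI, and the flat end of the untreated line is the Krt5-positive barcode.

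The Krt14 difference was found in the number of cells and in the highest cells. After thinning to 8000 UMIs, 509 cells untreated (10.8%, interval 9.9% to 11.7%) and 161 with MSA-2 (5.81%, interval 4.97% to 6.74%) held a UMI, and 1.63% and 0.613% held 3 or more. Without thinning, 52 untreated cells (1.10%) and 9 MSA-2 cells (0.325%) had 10 or more, and these held 32.1% and 15.2% of all Krt14 UMIs in tumor cells. The 52 untreated cells include the Krt5-positive barcode, which alone held 241 of the 3254 UMIs. Cells with 1 UMI made up 48.9% and 55.3% of positive cells. Median depth was 30200.5 UMIs in positive and 22452 in negative cells untreated, and 31540 and 23096 with MSA-2.

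Krt14 was also found in classes outside the tumor and Dcn-high cells. Among cells thinned to 1500 UMIs, 2.62% of untreated and 1.30% of MSA-2 tumor cells held Krt14, against 0.5% and 0.109% of phagocyte-like cells. In MSA-2 neutrophil-like cells, with a median depth of 1840 UMIs before thinning, the share was 0.387%. The median depths of phagocyte-like cells were 5397 and 4120 UMIs. The tumor share was above the phagocyte share in both libraries.

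The level of Krt14 in neutrophil-like cells was 26.5% of that in tumor and Dcn-high cells together, beside the 20.9% of Gng11 there, a marker of the same tumor cells. In phagocyte-like cells Krt14 was at 12.8% untreated and 17.1% with MSA-2, and Gng11 at 15% and 16.1%. For fibroblast-like cells the figures were 19.5% and 14.1% for Krt14 and 23.8% and 22.2% for Gng11. The neutrophil-like value rested on 10 Krt14 UMIs and the MSA-2 fibroblast-like one on 8. Gng11 was not confined to tumor cells, with 1311 CPM in untreated endothelial-like and 1403 CPM in untreated pericyte-like cells, where Krt14 had 0 UMIs. The part of free RNA in Krt14 outside tumor and Dcn-high cells was not tested.

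Krt14 was more than 2-fold higher in tumor than in fibroblast-like cells in both libraries. In the untreated library 6 members with at least 50 UMIs in both classes together were counted, of which 1 was higher, beside 20% of 14151 genes. Krt7 was lower, 1 of 6, beside 15.7% of genes, and the median log2 ratio was -0.06 over members and 0.16 over all genes. In the MSA-2 library 5 were counted and 1 was higher, beside 26.6% of 13802 genes. Krt19 and Cdh2 were lower there, beside 15% of genes, with medians of 0.17 over members and 0.43 over all genes. Scaling by TMM moved the last of these medians to 0.29.

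Tumor cells had 26.3 CPM of Krt14 and fibroblast-like cells 4.81 CPM untreated, a log2 ratio of 2.45 (1.61 to 3.46). With MSA-2 the levels were 10.9 and 1.11 CPM and the log2 ratio was 3.30 (2.31 to 4.52). The call for Krt7 rested on 1 cell, since fibroblast-like cells held 5 UMIs in 2 cells and 4 of these in 1. The log2 ratio of tumor over fibroblast-like cells was -2.14 (-3.45 to -0.47) with that cell and 0.17 (-2.37 to 5.49) without it. Cdh1 had no UMI in fibroblast-like cells of either library, but 3 UMIs there equal 1.31 CPM untreated and 0.415 CPM with MSA-2, above the tumor levels of 0.534 and 0.413 CPM.

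Within the Dcn-high cells Krt14 was lower with MSA-2 too, from 12 to 5.03 CPM, with a log2 ratio of -1.25 (-1.5 to -1.0). In MSA-2 Dcn-high cells 1 cell held 80 of 408 UMIs, and without it the log2 ratio was -1.57 (-1.82 to -1.31). Tumor cells without the Krt5-positive barcode had -1.17 (-1.28 to -1.05), and the difference between these classes was not tested. Dcn-high cells were below tumor cells in both libraries, by a log2 ratio of -1.14 (-1.35 to -0.93) untreated and -1.11 (-1.29 to -0.94) with MSA-2. With both classes together the ratio between groups was -1.65 (-1.74 to -1.56), larger in size than in either class; the class with less Krt14 was the more frequent of both with MSA-2.

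**Figure D3:**
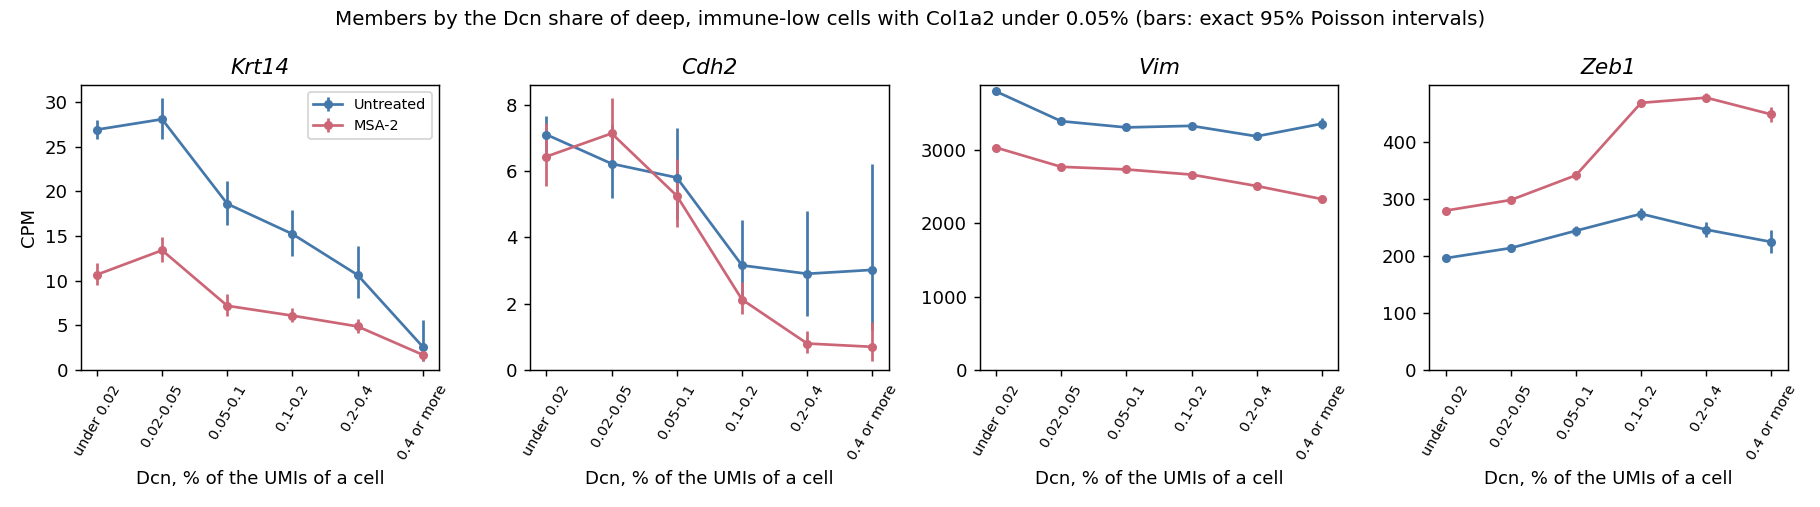
Levels of Krt14, Cdh2, Vim and Zeb1 in CPM in 6 ranges of the Dcn share, among cells with at least 8000 UMIs, few immune UMIs and Col1a2 under 0.05%, with exact 95% Poisson intervals. From the lowest to the highest range Krt14 goes from 26.9 to 2.59 CPM untreated and from 10.7 to 1.69 CPM with MSA-2.

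The trend with Dcn was followed over 6 ranges of the share of Dcn UMIs, from under 0.02% to 0.4% or more. They held 3278 to 136 untreated cells and 544 to 1496 MSA-2 cells, and median depth fell from 25758 to 15957.5 UMIs untreated and from 25671 to 16798.5 with MSA-2. Krt14 was at 26.9 CPM (24.3 without the Krt5-positive barcode) in the lowest range and 2.59 CPM in the highest, untreated. With MSA-2 it was at 10.7 and 1.69 CPM. In each of the 6 ranges Krt14 was lower with MSA-2, although the intervals of the highest range overlap.

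Cdh2, which encodes N-cadherin, was lower at high Dcn too. It went from 7.1 CPM in the lowest to 3.02 CPM in the highest range untreated, and from 6.44 to 0.697 CPM with MSA-2. Within tumor cells it had 842 UMIs (6.82 CPM) in 14.5% of untreated and 484 UMIs (6.45 CPM) in 13.2% of MSA-2 cells, and the log2 ratio of -0.08 (-0.24 to 0.08) was within counting error. In Dcn-high cells it went from 3.17 to 1.44 CPM, a log2 ratio of -1.14 (-1.61 to -0.64). Both classes together gave -0.73 (-0.88 to -0.58), so whether Cdh2 counts as lower with MSA-2 depended on the Dcn limit.

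Tumor cells were not the class with the highest Cdh2. Pericyte-like cells had 71.2 CPM untreated and 102 CPM with MSA-2, on 7 and 6 UMIs in 17 and 9 cells. Fibroblast-like cells came next with 11.8 CPM (7.77 to 17.2) and 16.7 CPM (13.9 to 20). Tumor over fibroblast-like cells was -0.79 (-1.34 to -0.18) on the log2 scale untreated and -1.37 (-1.66 to -1.07) with MSA-2. Phagocyte-like cells had 0.613 and 0.446 CPM, below tumor cells in both libraries.

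Vim was found in all 4728 and all 2772 tumor cells. After thinning to 8000 UMIs a tumor cell held a median of 27 Vim UMIs untreated and 21 with MSA-2, with 90% of cells from 12 to 53 and from 8 to 47. The level was 3682 CPM untreated and 2860 CPM with MSA-2, a log2 ratio of -0.36 (-0.37 to -0.36) that was under the 1.5-fold limit, and 20.7% of all genes had a lower ratio. Vim was lower with MSA-2 in each of the 8 classes, with log2 ratios from -0.74 (-0.91 to -0.58) in endothelial-like to -0.30 (-0.33 to -0.27) in phagocyte-like cells. The neutrophil-like value of -0.30 (-1.18 to 0.76) rested on 10 untreated UMIs in 9 cells and was within counting error. The median of all genes was itself below 0 in some classes, at -0.19 in phagocyte-like cells and -0.15 in fibroblast-like and T/NK-like cells. In phagocyte-like cells 41.3% of genes had a lower ratio than Vim.

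Vim did not set tumor cells apart from the stroma. Untreated, pericyte-like (4727 CPM), endothelial-like (4344 CPM) and fibroblast-like cells (3990 CPM) stood above tumor cells, and T/NK-like cells (1381 CPM) and phagocyte-like cells (1793 CPM) below. Tumor over fibroblast-like cells was -0.12 (-0.15 to -0.09) on the log2 scale untreated and 0.17 (0.14 to 0.19) with MSA-2. Between groups fibroblast-like cells went from 3990 to 2548 CPM, a log2 ratio of -0.65 (-0.68 to -0.61) that was past the limit, and the order of both classes differed between libraries.

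**Figure D4:**
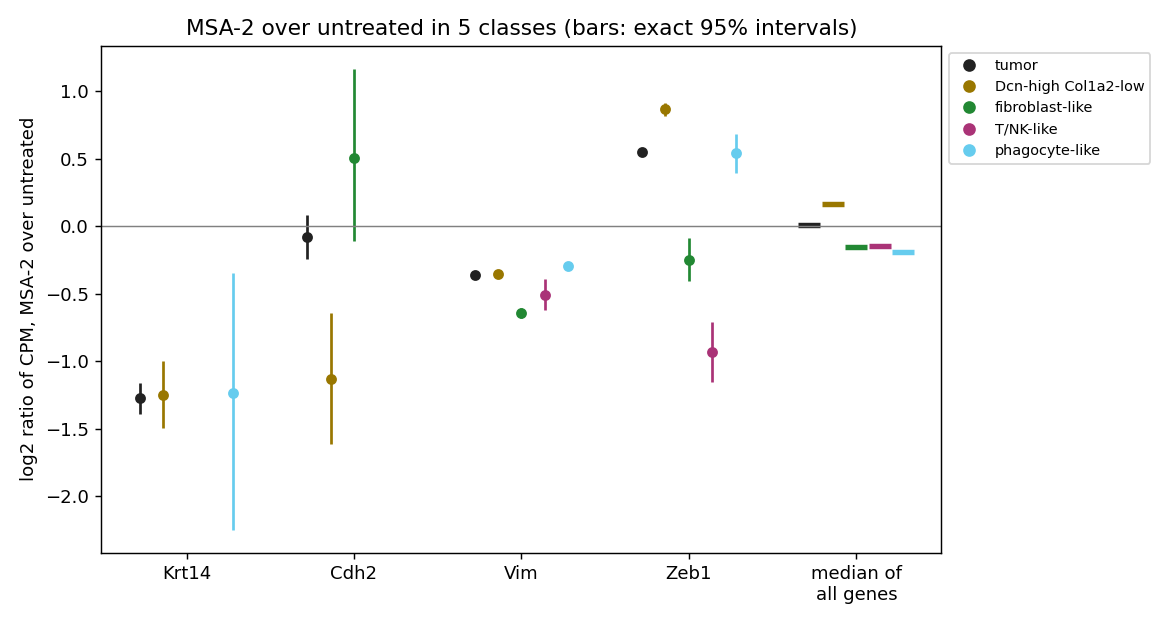
Log2 ratio of CPM, MSA-2 over untreated, for Krt14, Cdh2, Vim and Zeb1 in 5 classes, with exact 95% intervals, beside the median of all genes in each class. Zeb1 lies above 0 in tumor, Dcn-high and phagocyte-like cells and below 0 in fibroblast-like and T/NK-like cells; members with under 50 UMIs in a class are not drawn.

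Zeb1, the repressor, was found in most tumor cells of both libraries and was not past the limit between groups. It had 25122 UMIs (203 CPM) in 92.2% of untreated and 22348 UMIs (298 CPM) in 96.4% of MSA-2 tumor cells. The log2 ratio was 0.55 (0.52 to 0.58), just under the 1.5-fold limit of 0.58, and 84.6% of all genes had a lower ratio. After thinning to 8000 UMIs, 70.7% of tumor cells held a UMI untreated (interval 69.4% to 72.0%) and 81.2% with MSA-2 (interval 79.7% to 82.6%), with medians of 1 and 2 UMIs per cell.

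In Dcn-high cells Zeb1 went from 258 to 470 CPM, a log2 ratio of 0.86 (0.82 to 0.91). The median of all genes there was 0.17, and 84.9% of genes had a lower ratio than Zeb1, close to the share in tumor cells. Both classes together went from 210 to 387 CPM, a log2 ratio of 0.88 (0.86 to 0.90), which is past the 1.5-fold limit. With tumor cells taken without the use of Dcn, 17.4% of all genes were at least 1.5-fold higher. In the MSA-2 library Zeb1 climbed along the Dcn ranges from 279 to 477 CPM in the fifth range and 448 CPM in the sixth. Untreated it went from 196 CPM to 274 CPM in the fourth range and 224 CPM in the sixth. In every range the MSA-2 level was above the untreated one.

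Other classes did not share 1 direction. Zeb1 went from 192 to 161 CPM in fibroblast-like cells, a log2 ratio of -0.25 (-0.41 to -0.09), and from 486 to 255 CPM in T/NK-like cells, a log2 ratio of -0.93 (-1.16 to -0.71). Endothelial-like cells had 544 and 542 CPM, with no detectable difference at 34 and 33 cells. Phagocyte-like cells went from 47.8 to 69.4 CPM, a log2 ratio of 0.54 (0.40 to 0.68), and pericyte-like cells from 17 to 30 UMIs, under the minimum of 50, a log2 ratio of 1.56 (0.65 to 2.51). Of these 5 classes, T/NK-like cells alone were past the limit with at least 50 UMIs. Neutrophil-like cells had 392 CPM untreated, from 5 UMIs in 1 of 9 cells, and 121 CPM with MSA-2; without that cell no untreated UMI remained.

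By level, untreated Zeb1 ran from endothelial-like cells (544 CPM) and T/NK-like cells (486 CPM) over tumor (203 CPM) and fibroblast-like cells (192 CPM) to phagocyte-like cells. Tumor over fibroblast-like cells was 0.08 (-0.05 to 0.22) on the log2 scale untreated, within counting error, and 0.89 (0.80 to 0.97) with MSA-2. MSA-2 neutrophil-like cells had Zeb1 at 31.2% and Vim at 23.5% of the level in tumor and Dcn-high cells together, where Gng11 was at 20.9% and Dcn at 17.1%. How much of the Zeb1 in such cells was free RNA was not tested.

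Zeb1 and Cdh2 are long genes, spanning 184 and 220.4 kb on chromosome 18 of GRCm38, while Krt14 spans 4.39 kb on chromosome 11 and Vim 8.90 kb on chromosome 2. Over all genes in tumor cells the median log2 ratio between groups was -0.07 for genes under 10 kb and 0.11 for the 2034 genes of 100 kb or more, of which 20.1% were at least 1.5-fold higher. Genes of 100 kb or more made up 6.97% of UMIs in untreated and 7.45% in MSA-2 tumor cells, and 7.27% and 8.82% in Dcn-high cells. Mitochondrial genes made up 2.74% and 3.02% of UMIs in tumor cells. The part of gene length or RNA quality in the Zeb1 ratio was not tested. Cell Ranger 7 counts intronic reads by default, and whether that was done here is not known, so the Zeb1 and Cdh2 levels may hold unspliced RNA.

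Across tumor cells thinned to 8000 UMIs, the genes whose log2 UMIs plus 1 followed Zeb1 most closely among 8696 genes were Malat1, Trps1, Bnc2, Ust and Dst. Pearson's r with Malat1 was 0.46 over 4728 untreated and 0.48 over 2772 MSA-2 cells, and with Dst 0.35 and 0.38. Ribosomal genes ran opposite, with r of -0.37 and -0.39 for Rpsa. Among the genes most like Vim were Anxa2 (0.32 and 0.33) and S100a10 (0.31 and 0.39). Between Vim and Zeb1 r was -0.22 untreated and -0.08 with MSA-2, and Malat1 was the gene most opposite to Vim, at -0.34 and -0.24. For Krt14 and Cdh2 no gene passed an r of 0.13 in both libraries, which is too weak to read in sparse counts. The cells of a library share their pool of tumors, and these correlations are descriptions.

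No difference in the share with Zeb1 was detectable between tumor cells with and without Krt14. Among untreated tumor cells thinned to 8000 UMIs, 69.2% (64.9% to 73.1%) of those with Krt14 and 70.9% (69.5% to 72.3%) of those without held Zeb1. With MSA-2 the shares were 76.4% (69.1% to 82.7%) and 81.5% (80.0% to 83.0%), and the intervals overlapped in both libraries.

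Tumor cells were then ranked within each library by the summed share of 10 hypoxia, 10 interferon, 10 S-phase or 10 mitosis genes, none of them a member, and the 25% of cells at the top were set against the 25% at the bottom. Each set held 1182 untreated or 693 MSA-2 cells. Where the Krt5-positive barcode changed a value for Krt14, the value without it is given. Depth differed between these sets and its part was not tested.

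By hypoxia genes, untreated Krt14 went from 10.7 CPM in the bottom to 28.3 CPM in the top set, a log2 ratio of 1.40 (1.21 to 1.60). With MSA-2 it was 9.30 and 10.5 CPM, a log2 ratio of 0.17 (-0.13 to 0.48), within counting error. Median depths were 20531.5 and 23999 UMIs untreated and 20878 and 27736 with MSA-2. Cdh2 was higher in the top set in both libraries, with log2 ratios of 0.76 (0.45 to 1.08) and 0.57 (0.18 to 0.97), and Zeb1 lower, with -0.47 (-0.52 to -0.42) and -0.41 (-0.47 to -0.36). The relation of Krt14 to hypoxia genes was thus seen in the untreated library alone, and its difference between libraries was not tested.

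By interferon genes, Krt14 was lower in the top set. Untreated it went from 34.4 to 16.2 CPM without the Krt5-positive barcode, a log2 ratio of -1.08 (-1.25 to -0.92), and with that barcode, which lay in the top set, the ratio was -0.38 (-0.52 to -0.24). With MSA-2 it went from 17.4 to 9.07 CPM, a log2 ratio of -0.94 (-1.24 to -0.66). Median depth was 30513.5 in the bottom and 17556.5 in the top set untreated, and 27523 and 18443 with MSA-2. Cdh2 ran the same way, with -0.44 (-0.76 to -0.14) and -0.91 (-1.36 to -0.48), and Zeb1 the other way, with 0.39 (0.34 to 0.45) and 0.44 (0.39 to 0.50). Vim hardly differed, with -0.02 and 0.04.

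**Figure D5:**
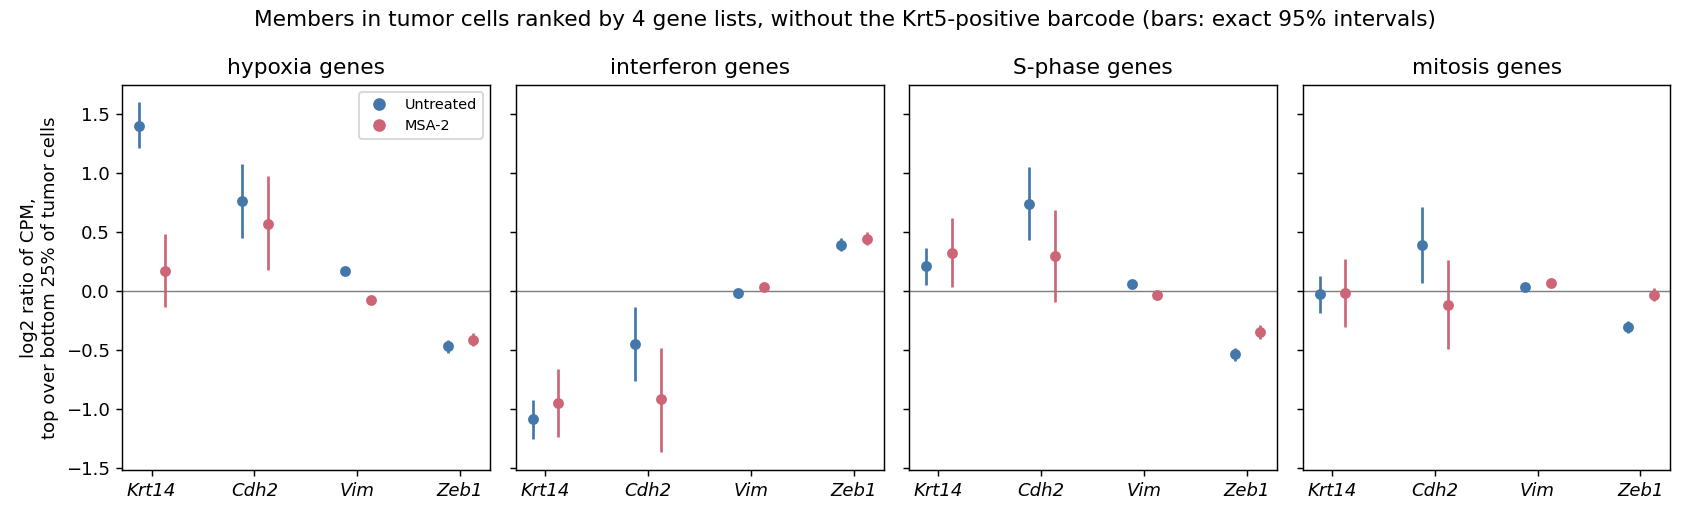
Log2 ratio of CPM in the top over the bottom 25% of tumor cells ranked by 4 gene lists, for Krt14, Cdh2, Vim and Zeb1 in each library, with exact 95% intervals and without the Krt5-positive barcode. Zeb1 is below 0 by hypoxia genes (-0.47 and -0.41) and above 0 by interferon genes in both libraries.

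By S-phase genes Zeb1 was lower in the top set in both libraries, and Cdh2 was higher in the untreated one. Cdh2 had log2 ratios of 0.74 (0.43 to 1.05) untreated and 0.29 (-0.09 to 0.69), within counting error, with MSA-2, and Zeb1 of -0.54 (-0.59 to -0.48) and -0.35 (-0.40 to -0.29). Krt14 had 0.32 (0.03 to 0.62) with MSA-2 and, untreated, -0.32 with and 0.21 (0.06 to 0.37) without the Krt5-positive barcode. By mitosis genes Krt14 had -0.02 (-0.30 to 0.27) with MSA-2 and, untreated, -0.56 with and -0.03 (-0.18 to 0.13) without that barcode. Untreated, the mitosis ranking gave -0.30 (-0.35 to -0.25) for Zeb1 and 0.39 (0.07 to 0.71) for Cdh2, and with MSA-2 -0.03 (-0.08 to 0.02) and -0.11 (-0.49 to 0.27), both within counting error. Vim moved by at most 0.17 on the log2 scale in any of the 4 rankings in either library.

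Gene lists around the members gave a wider view of the same tumor cells. Beside the 0.00 of all genes, their medians of the log2 ratio between groups lay between -0.70 and 1.91. The counts past 1.5-fold below stand beside 14.3% of all genes higher and 11.1% lower. The same lists without the Krt5-positive barcode changed in counts for the keratins and the basal genes alone.

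Of 48 other keratins 19 had no UMI and 5 were counted, with 0 higher, 2 lower (Krt17 and Krt6a) and a median of -0.33. Without the Krt5-positive barcode 4 were counted, none was past 1.5-fold and the median was 0.14. The highest was Krt10, with 12.1 CPM untreated and 9.61 CPM with MSA-2, followed by Krt16 with 9.39 and 8.65 CPM. The Krt5-positive barcode held 341 of the 1160 untreated Krt16 UMIs, and without it the level was 6.63 CPM and the log2 ratio went from -0.12 to 0.38 (0.23 to 0.53). The list of skin keratinocyte markers, which also holds Krt10, summed to 12.4 and 9.63 CPM in tumor cells, almost all of it Krt10. Its other markers in untreated tumor cells had 31 UMIs (Krt5), 5 (Krt1), 2 (Dsg1a) and 0 (Lor).

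Of 14 basal epithelial genes 10 were counted, with 2 higher (Lamb3 and Lama3), 3 lower (Krt17, Trp63 and Itga6) and a median of -0.30; without that barcode 2 were lower and the median was -0.05. Dst was the highest, with 347 CPM untreated and 489 CPM with MSA-2. Of 16 epithelial junction genes 8 were counted, with 1 higher (Pkp3), 0 lower and a median of 0.27. Catenins led that list, with Ctnna1 at 163 and 142 CPM. Of 20 epithelial regulators and intestinal markers 5 were counted, with 1 higher, 3 lower (Spint1, Trp63 and Vil1) and a median of -0.70. That median was the value of Vil1, which rested on 40 and 15 UMIs and was within counting error (-1.66 to 0.19). The higher one was Klf5, which went from 3.95 to 10.5 CPM, a log2 ratio of 1.41.

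All 8 mesenchymal transcription factors were counted, with 0 higher, 0 lower and a median of 0.09. Zeb2 led, with 155 CPM untreated and 202 CPM with MSA-2, and Twist1 stood at 109 and 102 CPM. All 25 mesenchymal structural genes were counted, with 3 higher (Cd44, Lum and Cdh11), 10 lower and a median of -0.12. Lgals1 was the highest, at 5135 and 5381 CPM, and S100a4 went from 3913 to 2446 CPM, a log2 ratio of -0.68. Col3a1 and Fn1 were lower, with log2 ratios of -1.22 and -1.14. The share of structural genes that were lower, 10 of 25, was thus above the 11.1% of all genes.

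The 4 lists used for ranking were all counted in full. Interferon genes had 9 of 10 higher, 0 lower and a median of 1.91, with Bst2 (0.46) under the limit. Mitosis genes had 0 higher and 0 lower with a median of 0.15, and S-phase genes 0 and 0 with -0.01. Hypoxia genes had 0 higher and 1 lower (Egln3, -1.0) with a median of -0.21.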

How the data were processed

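Libraries were analysed from both groups, 1 untreated and 1 MSA-2, each a count of UMIs per gene and barcode that the authors deposited without normalization; the submitters' processing notes name Cell Ranger 7.0.0, Seurat 4.3.0 and mm10, and the file headers Cell Ranger 7.0.1. Members were all features with the 10 symbols. Members and lists were chosen with earlier results of these data known. Barcodes under 500 genes or over 20% mitochondrial UMIs and Scrublet calls (scanpy 1.11.5, 0.8% expected per 1000 barcodes) were removed. Class limits were placed on the distributions of marker shares. UMIs were summed per class, scaled to CPM and compared between groups (call past 1.5-fold) and between classes of 1 library (past 2-fold), among genes with at least 50 UMIs on both sides together. A gene with 0 UMIs on 1 side was set against a floor of 3 UMIs; this was decided after a first pass over the data, and the earlier way is among the alternatives. No test was made, since cells are not replicates. Named genes were the members, the highest genes of each list and those past 1.5-fold, and genes from the 5 most alike by Pearson's r, not all of them printed; the Krt5-positive barcode and its genes, and the Dcn-high class, were singled out after their values were seen. Alternatives covered the cell filter, doublets, class limits, clustering (2000 variable genes, 30 components, 15 neighbors, resolution 1), thinning, weighting, the count minimum and TMM factors, computed in Python with edgeR's default trims. Of the feature identifiers 32158 (99.6%) are in GENCODE M21. Code was tested on simulated data and used Python 3.11.15, numpy 2.4.6, scipy 1.17.1, pandas 2.3.3 and matplotlib 3.10.9. Bulk, in vitro and animal data were not used here.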

Additional observations from a re-analysis of the deposited data

Results flagged for a closer look

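The Zeb1 ratio of MSA-2 to untreated had another sign in tumor cells than in 3 other classes, leaving aside endothelial-like cells. The log2 ratio of endothelial-like cells, -0.003 (-0.41 to 0.40), was within counting error. Of the values for tumor cells and the 3 classes, the T/NK-like and neutrophil-like ones were past 1.5-fold. The log2 ratio of Zeb1 was 0.55 in tumor cells and -0.25 in fibroblast-like cells, -0.93 in T/NK-like cells and -1.70 in neutrophil-like cells. It was above 0 in Dcn-high (0.86), phagocyte-like (0.54, under the limit) and pericyte-like cells (1.56, on 17 and 30 UMIs). In fibroblast-like cells the median of all genes was -0.15, and 42.2% of genes were below Zeb1. The neutrophil-like value rested on 5 UMIs in 1 of 9 untreated cells. With 1 library per group the differences between classes were not tested.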

How the results depend on the processing

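No paired analysis was possible because each group had 1 library. The counts and ratios were computed again under 18 alternatives, 14 planned and 4 chosen after seeing the data, of which a given result had at most 17. Of 383 values of single members, past a fold or not, 346 stayed within the counting interval or spread of the reported one. None past a fold with at least 50 UMIs changed sign, but between groups Cdh1, Cdh2 and Krt18 did, the last from 0.72 on 1 UMI per library (range -0.15 to 1.08). Across alternatives the log2 ratio between groups in tumor cells ran from -1.65 to -0.97 for Krt14, -3.55 to -2.19 for Krt7, 0.50 to 0.88 for Zeb1, -0.43 to -0.30 for Vim, -0.74 to 0.00 for Cdh2 and -1.01 to 0.05 for Cdh1. Of 102 counts of members past a fold, 84 were within 1.5 times those reported, which takes 3 beside 2 as close. Across the settings 9.97% to 19.6% of all genes counted were higher and 9.98% to 13.1% lower with MSA-2. Against untreated fibroblast-like cells 16.1% to 24.8% were higher and 12.2% to 19.8% lower. Against MSA-2 fibroblast-like cells 22.3% to 29.2% were higher and 12.5% to 18.4% lower. With a minimum of 10 UMIs, 2 of 9 members (Krt8 and Krt19) were higher with MSA-2, beside 19.6% of all genes. At that minimum 2 of 8 (Krt7 and Epcam) were lower in untreated tumor than in fibroblast-like cells, beside 19.8% of all genes. Beside Krt7 and Krt14, another member was lower with MSA-2 at that minimum (Epcam), with equal weight per cell (Cdh1), and with clustering or without Dcn (Cdh2). With a minimum of 200 UMIs, 1 (Krt14) was lower with MSA-2, 0 were lower than in untreated fibroblast-like cells and 1 (Cdh2) was lower than in MSA-2 ones, since fewer members passed. The same 3 counts of 1, 0 and 1 were found with the immune genes under 0.01%, and the counts against fibroblast-like cells of 0 and 1 with Col1a2 plus Dcn under 0.02%. Thinning to 8000 UMIs left 1 lower with MSA-2, and a fibroblast limit 2 times higher left 1 lower than in MSA-2 fibroblast-like cells. Cells grouped by clustering gave 2 of 7 members higher with MSA-2 (Krt8 and Zeb1), beside 17.3% of all genes. They gave 3 of 6 higher than in MSA-2 fibroblast-like cells (Krt14, Cdh1 and Zeb1), beside 24.7% of all genes. Without the use of Dcn these were 2 of 7 (Krt8 and Zeb1), beside 17.4% of all genes, and 2 of 6 (Krt14 and Zeb1), beside 26.6%. Equal weight per cell gave 2 of 5 (Krt14 and Zeb1) for the latter, beside 29.2% of all genes. With a ratio over 0 UMIs taken as past any fold, 2 of 6 (Krt14 and Cdh1) were higher than in untreated fibroblast-like cells, beside 24.8% of all genes. Apart from the UMI minimum, the cause was not tested. The 50 UMI minimum left 4 members uncounted between groups, and depth limits what can be said of Krt8, Krt18, Krt19 and Epcam in tumor cells.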
